A study of Mus musculus with 4 samples.

Results

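The regions described here are the bodies of protein-coding genes longer than 300 kb, each taken without the 1 kb at either end, in the RefSeq annotation of GRCm38 (mm10). The rule found 557 such genes among 21887 protein-coding genes on the main chromosomes. Their median length was 450.8 kb and the longest, Dmd, spanned 2390 kb. Their bodies together covered 315.5 Mb, or 11.67% of the 2704 Mb between the outermost annotated genes or peaks of the chromosomes. Membership used gene length alone and no measured value.

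The study profiled Sub1 by CUT&Tag in sorted mouse bone marrow cells. In this assay an antibody directs a transposase to the chromatin that carries its target, and regions where cut fragments pile up are called as peaks. The group HSC held hematopoietic stem cells sorted as CD48- CD150+ cells of the LSK fraction from Nup214fl/+ mice, and the group LSC held leukemia stem cells sorted as c-Kit+ CD34+ CD16/32+ cells without lineage markers or Sca-1 (Lin-, Sca-1-) from Nup214fl/+ mice whose disease was driven by MLL-AF9. All donors therefore carried 1 floxed allele of Nup214, and both groups had 2 libraries with the same Sub1 antibody. Because one cell type, hematopoietic stem cell, is labelled throughout, the groups rest on the titles and the sorting scheme. The labels give neither the age of the mice nor the number of mice behind a group, so the spread between 2 libraries may be technical.

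Sub1 is a small DNA-binding coactivator that binds single-stranded DNA and contacts the transcription machinery, and its peaks are therefore read here along transcribed and untranscribed genes. Very long genes consist almost entirely of introns. Many encode adhesion molecules, receptors and channels of neurons and are silent in blood cells, while a smaller number encode regulators and signalling proteins that blood cells use, and a few (Fhit, Wwox, Immp2l) span common fragile sites. Members were placed in classes from general knowledge of where the genes are used, with no expression measured in these cells. Of the members, 42 were listed as active in blood stem and myeloid cells, 40 as widely expressed, 7 as lymphoid, 197 as neuronal and 56 as silent in blood for other reasons (muscle, epithelium, other organs). The remaining 215 were in no list.

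On the main chromosomes the libraries had very unequal numbers of deposited peaks, 115195 (HSC 1), 234417 (HSC 2), 40743 (LSC 1) and 33885 (LSC 2), and values below are given in this order. The background pileup that the authors' fold and p-values imply, the only measure of depth at hand, was 3.07, 7.47, 4.54 and 4.50. List length therefore differed between groups together with any density of peaks, and every density was also computed from lists of equal size, the strongest 33885 peaks of each library by -log10 p. Peaks within 1 kb of the ends of marker genes were set beside the labels. Of all 17492 protein-coding genes with a known strand, 54.7%, 61.9%, 52.9% and 50.8% had a peak at the 5′ end, with 3′ ends not counted. The stem cell marker counts below lie near that share and do not check the labels. All 3 pan-blood markers (Ptprc, Spi1, Runx1) had one in every list, 4 or 5 of 5 neutrophil markers had one in each list, 4, 5, 3 and 3 of 7 stem cell markers did, with Mecom and Hlf in no list, and 0, 1, 0 and 0 of 4 neuron markers did. Markers of B cells (2, 3, 1 and 1 of 3), T cells (1, 2, 0 and 0 of 2) and erythroid cells (2, 2, 3 and 1 of 3) had some, as had those of endothelium (1, 2, 0 and 0 of 2) and stroma (1, 2, 1 and 0 of 2). The part of other cell types in the results below was not tested.

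Some peaks inside the members lay at annotated start sites. The RefSeq promoter table (GRCm38) placed 292 start sites inside the bodies of 189 members, more than 1 kb from either end. A peak lay at 32, 46, 34 and 33 of them in HSC 1, HSC 2, LSC 1 and LSC 2, and at 28 (9.59%) in all 4 lists. Of internal starts of all protein-coding genes, 33.6% had a peak in all 4 lists, of those in genes of 100 to 300 kb 25.1%, and of all 21263 start sites of protein-coding genes that the table holds, 42.7%. The 28 in members fell in blood-active members (10 of 29 internal starts), widely expressed members (6 of 16) and unlisted members (12 of 113), and none of the 106 internal starts of neuronal members or the 25 of other silent members had a peak in all 4 lists. The 250 bases before 7 internal starts are printed below, 5′ to 3′, with each CpG in capitals, to set starts with a peak, rich or poor in CpG, beside CpG-rich starts without one. The first 3 are the starts at least 10 kb from the gene's 5′ end in blood-active or widely expressed members whose weakest peak over the 4 lists was highest, the next 2 are the leading ones with 5 or fewer CpG, and the last 2 are the CpG-richest internal starts of neuronal members with no peak in any list.

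Celf2, chr2:6721663-6721912, minus strand: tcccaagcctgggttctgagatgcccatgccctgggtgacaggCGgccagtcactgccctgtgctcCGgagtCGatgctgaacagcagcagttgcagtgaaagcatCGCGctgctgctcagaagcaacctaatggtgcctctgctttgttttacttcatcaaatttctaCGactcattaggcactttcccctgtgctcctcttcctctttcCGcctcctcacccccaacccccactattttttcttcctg
Foxp1, chr6:99028299-99028548, minus strand: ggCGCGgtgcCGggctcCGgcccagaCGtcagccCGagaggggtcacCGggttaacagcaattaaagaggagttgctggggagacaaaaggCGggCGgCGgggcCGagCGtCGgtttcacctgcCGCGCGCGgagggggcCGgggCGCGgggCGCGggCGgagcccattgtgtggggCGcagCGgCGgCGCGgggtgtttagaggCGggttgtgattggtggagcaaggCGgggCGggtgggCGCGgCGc
Stag1, chr9:100643198-100643447, plus strand: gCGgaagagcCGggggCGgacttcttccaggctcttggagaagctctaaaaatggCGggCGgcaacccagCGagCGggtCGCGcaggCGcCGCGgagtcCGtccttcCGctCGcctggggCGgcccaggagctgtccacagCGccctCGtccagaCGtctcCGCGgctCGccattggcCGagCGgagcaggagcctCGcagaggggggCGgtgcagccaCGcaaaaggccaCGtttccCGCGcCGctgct
Pde4b, chr4:102569810-102570059, plus strand: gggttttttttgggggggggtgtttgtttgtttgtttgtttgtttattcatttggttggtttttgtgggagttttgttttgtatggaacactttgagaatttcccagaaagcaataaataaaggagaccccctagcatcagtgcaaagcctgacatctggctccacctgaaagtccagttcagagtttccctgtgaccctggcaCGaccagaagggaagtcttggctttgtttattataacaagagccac
Mctp1, chr13:76579347-76579596, plus strand: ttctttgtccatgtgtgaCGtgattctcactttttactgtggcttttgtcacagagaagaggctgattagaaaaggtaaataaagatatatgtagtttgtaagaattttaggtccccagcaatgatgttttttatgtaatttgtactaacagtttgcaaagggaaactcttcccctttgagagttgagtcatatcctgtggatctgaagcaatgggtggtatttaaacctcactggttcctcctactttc
Cacna1d, chr14:30353487-30353736, minus strand: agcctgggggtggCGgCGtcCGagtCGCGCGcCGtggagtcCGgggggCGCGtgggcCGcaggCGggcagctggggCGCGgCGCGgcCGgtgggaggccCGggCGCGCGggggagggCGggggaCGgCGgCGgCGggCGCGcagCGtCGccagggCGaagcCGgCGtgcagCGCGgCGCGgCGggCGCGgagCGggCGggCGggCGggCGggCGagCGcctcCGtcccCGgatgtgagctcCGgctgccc
Cacna1c, chr6:119108496-119108745, minus strand: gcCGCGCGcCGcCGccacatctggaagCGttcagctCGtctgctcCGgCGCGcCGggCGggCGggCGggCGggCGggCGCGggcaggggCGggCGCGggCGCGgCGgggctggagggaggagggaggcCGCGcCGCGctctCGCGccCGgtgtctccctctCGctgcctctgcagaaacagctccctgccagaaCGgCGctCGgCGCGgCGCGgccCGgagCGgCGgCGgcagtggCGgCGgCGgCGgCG

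Celf2 encodes an RNA-binding splicing regulator, and its internal start lay 674.7 kb from the annotated 5′ end, where the peak reached folds over background of 48.9, 87.6, 241.0 and 203.5 in HSC 1, HSC 2, LSC 1 and LSC 2. No list had a peak at the annotated 5′ end of Celf2. The forkhead repressor gene Foxp1 had its printed start 494.4 kb into the gene, with folds of 41.0, 57.4, 109 and 108. Stag1, a cohesin subunit gene, had one 45.7 kb inside with folds of 41.8, 39.5, 126 and 74.9. The 250 bases before these starts held 7, 34 and 31 CpG. Pde4b, a cAMP phosphodiesterase gene, and Mctp1, a gene for a membrane protein with C2 domains, held 1 CpG each in the printed stretch, with folds of 24.8, 31.2, 117 and 64.5 in Pde4b and 23.8, 42.4, 39.0 and 30.7 in Mctp1. Both calcium channel genes printed for contrast were far richer in CpG, with 50 (Cacna1d) and 48 (Cacna1c), and had no peak at these starts.

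The classes differed among CpG-rich starts too. In the 300 bases around the start (250 before to 50 after), 20 or more CpG were found in 26.5% of all 32851 windows of the promoter table. Of internal starts with 20 or more CpG, 8 of 10 in blood-active and widely expressed members had a peak in all 4 lists, against 0 of 29 in neuronal and other silent members, of which 1 had a peak in any list. At starts near the gene ends with as many CpG, 23 of 38 and 4 of 64 had a peak in all 4 lists. There 34 and 10 had one in any list. The share with a peak over all promoters this rich in CpG was not computed. Median CpG in the same window was 21 at the 28 internal starts with a peak in all 4 lists and 7 at the 236 with none, and the median over all promoters was 7. Short motifs of blood and general factors were looked for on both strands. CCGGAAG, a core bound by ETS factors, lay in 3 of 28 windows with a peak and 3 of 236 without (8.86% of all promoters), GAGGAAG, a PU.1-type core that shares GGAAG with it, in 7 of 28 and 27 of 236 (13.6%), and TGTGGT, a RUNX core, in 1 of 28 and 38 of 236 (16.8%). These are descriptions of letters in a window.

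Bodies of long genes held few peaks for their size. HSC 1 had 3176 peaks in them, HSC 2 had 15425, LSC 1 had 912 and LSC 2 had 497, which is 2.76%, 6.58%, 2.24% and 1.47% of each list, beside 11.67% of the span. Densities were 10.1, 48.9, 2.89 and 1.58 peaks per Mb in the bodies and 46.9, 91.7, 16.7 and 14.0 in the rest of the genome. The rest of the genome was thus 4.66, 1.88, 5.77 and 8.88 times as dense, in 4 of 4 libraries (mean log2 ratio of bodies to rest -2.20, two-sided exact sign-flip permutation test over 4 libraries p = 0.13, the smallest it can give). Sequence outside all annotated genes was denser than long bodies too, by 2.19, 1.17, 1.99 and 3.07 times.

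Density fell with gene length in every library. Bodies of genes of 2 to 30 kb held 184, 233, 64.1 and 58.0 peaks per Mb in HSC 1, HSC 2, LSC 1 and LSC 2. Those of 100 to 300 kb held 41.1, 104, 12.7 and 8.77. In the 59 members over 1 Mb the values were 3.47, 31.7, 0.757 and 0.328, the lowest of the length classes compared. Just outside the length limit, AW554918 (298.6 kb) had 3, 8, 1 and 1 body peaks, Atp2b2 (298.8 kb) 9, 25, 2 and 1 and Akap13 (299.1 kb) 24, 44, 12 and 8. Just inside it, Zfp423 (300.2 kb) had 3, 16, 2 and 1, Kcnq3 (300.3 kb) 2, 17, 1 and 0 and Jazf1 (300.6 kb) 7, 42, 2 and 0.

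**Figure D1:**
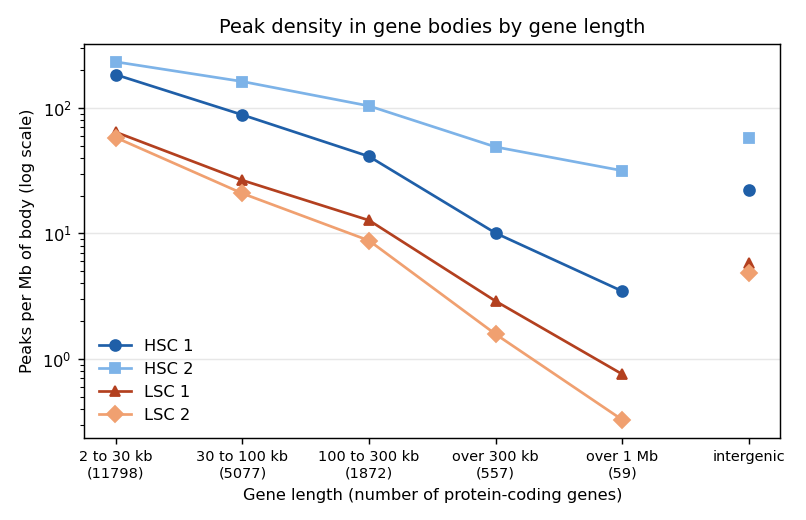
Peaks per Mb of gene body (log axis) for protein-coding genes by length class, with sequence outside annotated genes at the right and 1 point per library from the deposited lists. Density falls in each library from 184, 233, 64.1 and 58.0 at 2 to 30 kb to 10.1, 48.9, 2.89 and 1.58 over 300 kb (HSC 1, HSC 2, LSC 1, LSC 2), and the class over 1 Mb is part of the class over 300 kb.

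Blood-active long genes carried more Sub1 peaks than neuronal ones in each library. Blood-active bodies held 31.8, 90.9, 10.3 and 6.21 peaks per Mb in HSC 1, HSC 2, LSC 1 and LSC 2, and neuronal bodies held 4.56, 36.6, 0.996 and 0.524. The ratio was 6.97, 2.49, 10.3 and 11.9, a mean log2 ratio of 2.76 with the same sign in 4 of 4 libraries (two-sided exact sign-flip permutation test p = 0.13, the smallest 4 libraries can give). Against other silent bodies, which held 5.76, 38.5, 1.22 and 0.734 peaks per Mb, the ratio was 5.51, 2.36, 8.42 and 8.47 (mean log2 ratio 2.46, two-sided exact sign-flip permutation test p = 0.13).

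Widely expressed members lay between, at 19.4, 70.9, 5.53 and 2.56 peaks per Mb. The 7 lymphoid members held 9.75, 59.3, 4.33 and 2.98, and unlisted members 12.6, 56.0, 3.96 and 2.13. Against sequence outside genes, blood-active bodies were 1.44, 1.59, 1.79 and 1.28 times as dense and neuronal bodies 0.207, 0.639, 0.173 and 0.108 times. Blood-active bodies were thus the one class above the intergenic density in 4 of 4 libraries.

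Counted by gene, every blood-active member had a body peak in both HSC lists, and 37 and 28 of 42 had one in LSC 1 and LSC 2. Of 197 neuronal members, 166 had one in HSC 1, 196 in HSC 2, 60 in LSC 1 and 36 in LSC 2. The median blood-active gene had 28.3, 83.1, 6.97 and 5.27 peaks per Mb. In neuronal genes the median was 3.18, 31.3, 0 and 0, so the higher neuronal totals in HSC 2 were spread over nearly all genes of the class. The lower quartile of neuronal genes in HSC 2, 25.4 peaks per Mb, was above the upper quartile of blood-active genes in LSC 1 (16.3) and LSC 2 (9.42), so densities compare within a list and not between lists of such different length.

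**Figure D2:**
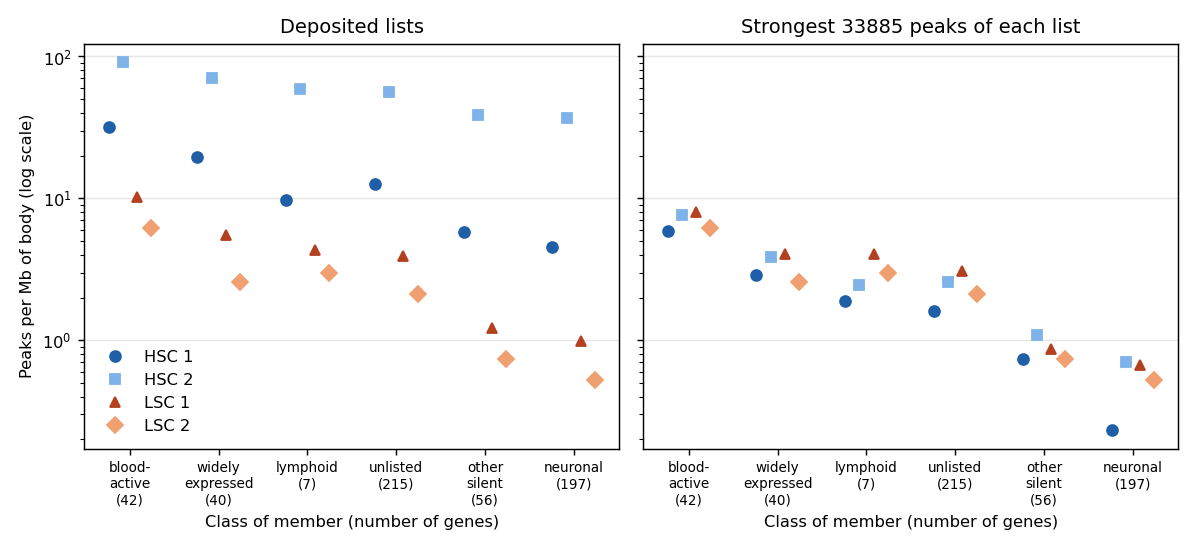
Peaks per Mb of body (log axis) for 6 classes of members, 1 point per library, from the deposited lists at the left and from the strongest 33885 peaks of each list at the right. Blood-active bodies lead in all 4 libraries in both panels, and at equal list size the 4 libraries draw together, with blood-active bodies at 5.90, 7.59, 8.08 and 6.21 and neuronal bodies at 0.233, 0.698, 0.669 and 0.524.

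The difference between groups in body density and in the blood-active to neuronal ratio changed sign when lists were made equal in size. As deposited, the density in long bodies was 3.38 higher in HSC than in LSC on the log2 scale, and the ratio of blood-active to neuronal density was 1.41 lower on that scale (two-sided exact permutation over 4 libraries, p = 0.33 for both, the smallest 2 against 2 libraries allow). With lists of equal size, the body density was 1.30, 2.03, 2.18 and 1.58 peaks per Mb in HSC 1, HSC 2, LSC 1 and LSC 2, a difference of -0.19 (two-sided exact permutation p = 0.67), and the groups overlapped. The ratio of blood-active to neuronal density became 25.4, 10.9, 12.1 and 11.9, a difference of 0.47 (two-sided exact permutation p = 1). HSC 1 stood above the other libraries there, with 32 neuronal body peaks against 96, 92 and 72. A difference in this ratio between HSC and LSC was thus not detectable with 2 libraries per group. The ratio of blood-active to other silent density was lower in HSC by 1.23 on the log2 scale in the deposited lists. In equal-sized lists it was lower by 0.24 (two-sided exact permutation p = 0.33 for both), and with the strongest 8471 peaks by 1.86. A single gene, Cdh23, held 18, 10, 8 and 9 of the 27, 40, 32 and 27 other silent body peaks in equal-sized lists. The difference between groups without that gene was not computed, so its sign may rest on Cdh23. With the strongest 16942 peaks the groups overlapped, at 5.986 and 9.795 in HSC 1 and HSC 2 against 9.36 and 8.916 in LSC 1 and LSC 2. With the strongest 4235 peaks the ratio was not lower in HSC, at 24.49 and 17.96 against 19.59 and 17.96.

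Within a library the class ratio was higher among stronger peaks. In HSC 2 it was 2.49 with all 234417 peaks, 4.71 with the strongest 135540, 7.07 with 67770, 10.9 with 33885 and 21.2 with 16942. HSC 1 went from 6.97 with its whole list to 15.9 with 67770, 25.4 with 33885 and 20.6 with 16942. LSC 1 and LSC 2 had ratios of 18.7 and 13.5 at 16942 peaks. Neuronal bodies thus took a larger share of the weak end of each list than of its strong end.

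**Figure D3:**
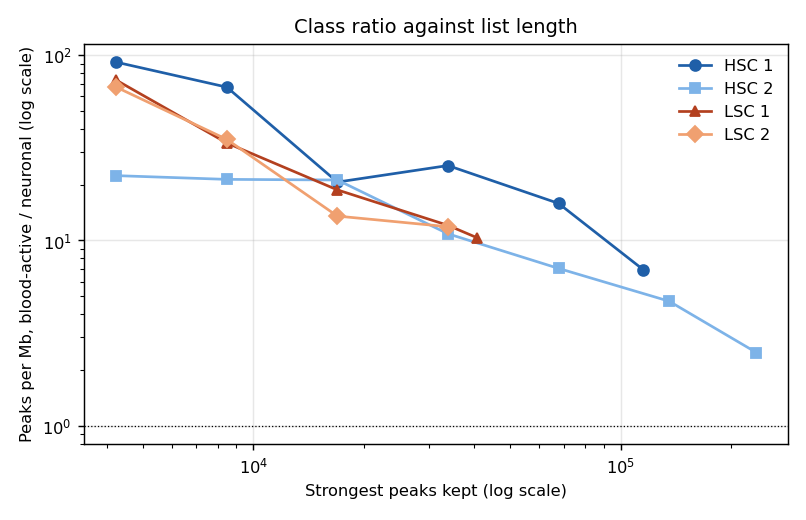
Ratio of peaks per Mb in blood-active to neuronal bodies (log axis) against the number of strongest peaks kept (log axis), 1 line per library, with a dotted line at equal density. The ratio stays above 1 at every size and is lowest in each library with its whole list, in HSC 2 falling from 21.2 at 16942 peaks to 2.49 at 234417, and below 16942 peaks it rests on a few neuronal peaks.

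Peaks in blood-active bodies were also stronger than peaks in neuronal ones. Those in blood-active bodies had a median fold of 6.39, 4.96, 8.21 and 7.91 in HSC 1, HSC 2, LSC 1 and LSC 2, and those in neuronal bodies 4.91, 3.78, 6.67 and 6.81. Medians above the blood-active ones were found in lymphoid bodies in LSC 1 (12.6, on 16 peaks) and LSC 2 (12.2, on 11 peaks) and in widely expressed bodies in LSC 2 (9.81). Outside the long bodies the median was 7.37, 6.02, 8.66 and 7.63. Folds rank peaks within a list and are the authors' own values. Body peaks were also recovered less often by the other libraries. In LSC 1, 27.7% of long-body peaks overlapped a peak of both HSC lists (by at least 1 bp), against 55.2% of its peaks elsewhere, and in LSC 2 the shares were 45.7% and 66.8%. For blood-active bodies the shares were 35.3% and 50.0%, and for neuronal bodies 10.9% and 27.8%. Of HSC 1's body peaks, 37.0% in blood-active genes and 11.8% in neuronal genes overlapped a peak of the far longer HSC 2 list.

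Among blood-active members are transcription and chromatin regulators. Cux1, a homeodomain factor gene at chr5:136248135-136567590, had 40, 83, 12 and 7 body peaks in HSC 1, HSC 2, LSC 1 and LSC 2, or 126, 261, 37.8 and 22.1 per Mb. Foxp1 at chr6:98925342-99522746 had 53, 120, 19 and 11. Arid1b, a SWI/SNF subunit gene at chr17:4994297-5347656, had 37, 75, 15 and 12. In each of these genes both HSC lists were above both LSC lists, as their list lengths were. With equal-sized lists the counts overlapped between groups in Cux1 (7, 8, 10 and 7) and Foxp1 (10, 20, 14 and 11). In Arid1b they were 10, 9, 14 and 12, so that both LSC lists were above both HSC lists.

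The class also holds signalling genes of blood cells. Dock2, the exchange factor gene for Rac in hematopoietic cells (chr11:34226815-34783905), had 31, 62, 9 and 3 peaks, and its partner Elmo1 (chr13:20090507-20608353) had 24, 68, 13 and 4. Prkcb, a protein kinase C gene, had 30, 48, 4 and 3, and Vav3, an exchange factor gene, had 26, 55, 1 and 2. Arhgap15, which encodes a Rac inactivator, had 20, 43, 6 and 5. In Vav3 the HSC counts stayed above the LSC counts in equal-sized lists (7 and 5 against 1 and 2), and in Elmo1 they did not (7 and 8 against 11 and 4).

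Regulators of stem and progenitor cells are on the list too. Msi2, an RNA-binding protein gene of stem cells, had 8, 49, 4 and 2 body peaks. Bach2, which encodes a transcriptional repressor that acts in lymphoid cells, had 8, 34, 6 and 2. Mecom, which encodes the stem cell factor EVI1, had 5, 22, 2 and 0 across its 558.5 kb and no list had a peak at either end. Zbtb20 had 3, 25, 1 and 0 and Lrmda 6, 61, 1 and 0, although both had a 5′ end peak in all 4 lists. Dpyd, Diaph2 and Plxdc2 closed the class with no LSC body peak. The blood-active class therefore ranged from 2.07 to 126 peaks per Mb in HSC 1 and from 0 to 34.2 in LSC 2.

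Neuronal giants were nearly empty in 3 of the 4 lists. Cntnap2, an adhesion gene of 2241 kb at chr6:45060061-47301393, had 2, 57, 0 and 0 peaks in HSC 1, HSC 2, LSC 1 and LSC 2. Rbfox1, a splicing factor gene of neurons and muscle, had 10, 52, 0 and 0. Dlg2, a synaptic scaffold gene, had 6, 69, 0 and 0 and Ptprd, a receptor phosphatase gene, 5, 57, 0 and 0. Lrp1b had 6, 58, 0 and 0, Nrxn3 had 4, 39, 0 and 0, and Ctnna2 had 2, 34, 0 and 0. Csmd1, with 8, 54, 3 and 1, was the one of these 8 genes with LSC peaks. All of its LSC peaks lay within 1 kb of or inside a gene enclosed in its body, with 0 and 0 outside. An empty LSC list is a statement about peaks past the authors' threshold and sets no limit on signal below it.

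Each of these 8 genes held from 34 to 69 peaks in HSC 2 and no more than 10 in HSC 1. With equal-sized lists HSC 1 had none in any of the 8, and HSC 2 had 1 in Dlg2 and 1 in Lrp1b.

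Silent genes of other tissues showed the same order of libraries. Dmd, the dystrophin gene of muscle on chromosome X (82814664 to 85205050), had 3, 44, 0 and 0 peaks. Macrod2 had 2, 79, 0 and 0, Ctnna3, a catenin gene of heart, 4, 54, 2 and 1, and Pkhd1, a kidney and liver duct gene, 0, 21, 0 and 0. Among widely expressed members at fragile sites, Fhit had 5, 48, 2 and 1 peaks, Wwox 9, 75, 2 and 1 and Immp2l 5, 19, 1 and 0. Exoc4, an exocyst subunit gene, had 4, 31, 1 and 0. In HSC 1 all 4 were below the median of their class (16.3 per Mb), at 3.11 for Fhit, 9.88 for Wwox, 5.38 for Immp2l and 5.53 for Exoc4, and in HSC 2 Wwox, at 82.3, was above it (67.8). Members on chromosome X (24 genes) held 3.00, 23.0, 0.666 and 0.333 peaks per Mb against 10.4, 50.3, 3.02 and 1.66 on autosomes, and chromosome X as a whole was also lower (9.0, 32.4, 3.86 and 3.23 against 46.5, 93.7, 16.4 and 13.6).

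**Figure D4:**
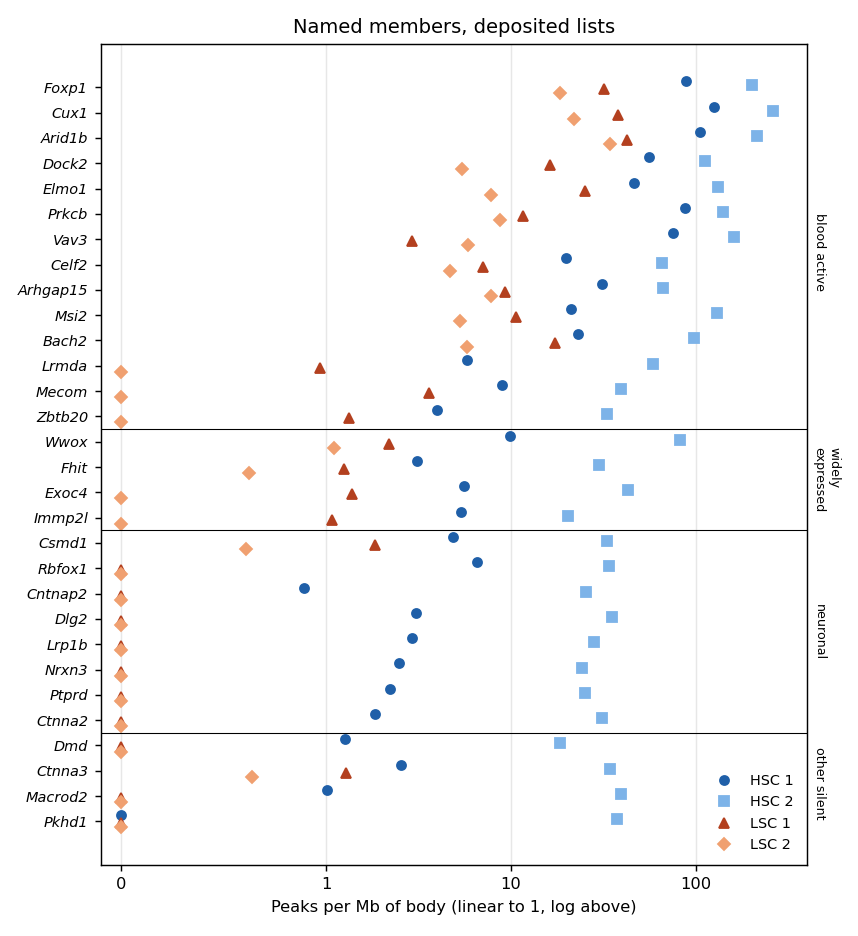
Peaks per Mb of body in each deposited list (axis linear to 1 and log above) for members fixed by name, ordered by class, 1 point per library and shifted slightly in height. The LSC points of 7 of 8 neuronal genes lie at 0, while Foxp1, Cux1 and Arid1b have values from 18.5 to 261 in all 4 lists.

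A few listed silent genes stood out within their class. Cdh23, the cadherin gene of hair cell tip links at chr10:60302748-60696513, had 63, 74, 10 and 9 peaks. It encloses Vsir, the gene of an immune checkpoint receptor of blood cells (chr10:60346851-60430294), and 35, 28, 4 and 7 of those peaks lay within 1 kb of or inside genes lying in its body. The strongest Cdh23 peak in every list, with folds of 74.4, 139, 212 and 248, lay within 1 kb of an end of Vsir. The remaining 28, 46, 6 and 2 peaks of Cdh23 left 91.4, 150, 19.6 and 6.53 per Mb, still above the class as a whole in each list. Cacna1d, a calcium channel gene at chr14:30039941-30491156, had 33, 68, 13 and 8 peaks, the strongest within 1 kb of an end of Dcp1a, a decapping gene that overlaps it. Cacna1a had 19, 50, 9 and 8 and Gabbr2, a GABA receptor gene, 24, 66, 4 and 7.

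Over all members, 64 enclosed other protein-coding genes, 107 different ones in 170 pairs of host and enclosed gene. In neuronal hosts the enclosed genes held 8.38, 48.6, 8.38 and 3.35 peaks per Mb, against 4.47, 33.9, 0.389 and 0.194 in the rest of those hosts' bodies. These densities rest on 5, 29, 5 and 2 peaks over 0.596 Mb. The order was the reverse in blood-active hosts in LSC 1 (7.57 enclosed, 10.4 outside) and in widely expressed hosts in HSC 1 (22.0 and 23.0). Without such peaks the mean log2 ratio of blood-active to neuronal density was 2.77 (two-sided exact sign-flip permutation test p = 0.13).

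Gse1 and Baz2b, both unlisted, led all members by the lowest density over the 4 lists. Gse1, which encodes a protein of a histone demethylase complex (chr8:120228501-120581383), had 55, 104, 29 and 22 peaks, and Baz2b, a bromodomain gene (chr2:59899363-60209913), had 49, 72, 22 and 15. In HSC 1 alone the densest body was that of other silent Cdh23, at 161 peaks per Mb against 159 in Baz2b. Cdh23 and neuronal Cacna1a were among the leading 10 by lowest density, as were Arid1b and Cux1. Blood-active Maml3, a Notch coactivator gene (33, 70, 20 and 12), Rere, a corepressor gene (32, 60, 13 and 8), Runx2 (27, 72, 8 and 9) and the Rac exchange factor gene Tiam1 (22, 59, 10 and 8) were also among the leading 10. The strongest peak in Runx2 lay 79.5 to 79.7 kb from the 5′ end in all 4 lists, with folds of 44.7, 79.6, 218 and 202, and no list had a peak at the 5′ end itself. In Rere it lay 287.2 to 288.4 kb from the 5′ end, with folds of 42.5, 70.2, 129.5 and 131.2.

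Peaks at the gene's own start were fewer in members than in shorter genes. Of 425 members whose strand was known, 86 (20.2%) had a 5′ end peak in all 4 lists, against 47.5% of all 17492 protein-coding genes with a known strand and 46.1% of those of 100 to 300 kb. No list had one in 252 members (59.3%), against 33.8% and 34.3%. Bodies of the former held 26.1, 83.6, 7.95 and 4.41 peaks per Mb and of the latter 6.24, 39.8, 1.84 and 0.954, a ratio of 4.17, 2.10, 4.32 and 4.63. Among blood-active members 23 of 36 had such a peak in all 4 lists, against 5 of 146 neuronal members. Within the blood-active class the densities were 37.9, 104, 12.8 and 7.26 with the peak and 24.2, 71.9, 8.90 and 5.88 for the 9 members without one in any list, and within the neuronal class 7.76, 46.1, 1.14 and 1.60 against 4.14, 34.6, 0.865 and 0.376. Both comparisons had the same direction in each library. The neuronal members with the peak were 5 genes over 4.38 Mb, so their LSC densities rest on few peaks. In the widely expressed class the 21 members with the peak held 22.5, 76.0, 5.25 and 2.52 and the 4 without one 11.3, 57.0, 4.84 and 2.69, which is the other direction in LSC 2. In all of these splits a broad peak that reached the 5′ end, with its midpoint past 1 kb, counted on both sides. The strongest body peak of Arhgap15 was of this kind. Part of the higher density with a 5′ end peak can follow from this rule, and how much was not tested. At the 3′ end, 3, 8, 1 and 1 of 36 blood-active members had a peak, fewer than the 26, 24, 25 and 24 with one at the 5′ end.

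Peaks of the blood-active bodies were gathered toward the 5′ end without stopping there. The stretch from 1 to 10 kb held 173, 225, 92.6 and 61.7 peaks per Mb in the 36 blood-active members with a known strand. From 50 to 100 kb the values were 36.1, 102, 13.9 and 7.22, and beyond 300 kb they were 20.6, 74.7, 7.57 and 4.12. The first 50 kb held 23.4%, 13.5%, 26.6% and 30.2% of the body peaks on 8.93% of the length (mean 23.4% ± 7.16, SD, n = 4 libraries), and the last 50 kb held 8.99%, 11.2%, 10.3% and 6.35%. In widely expressed members the first 50 kb held 34.4%, 17.8%, 39.3% and 46.3%, on 10.2% of the length. In neuronal members it held 12.2%, 8.24%, 15.1% and 27.3%, on 6.86%, and the last 50 kb held 13.7%, 8.37%, 20.8% and 21.8%, which in 3 of 4 libraries was above the share of the first 50 kb. From 100 to 200 kb from the 5′ end, which in every member is also at least 100 kb from the 3′ end, blood-active bodies held 34.2, 101, 10.0 and 4.44 peaks per Mb and neuronal bodies 3.84, 40.4, 1.23 and 0.479. The stretch beyond 300 kb runs to the 3′ end, and neuronal bodies held 4.11, 33.3, 0.875 and 0.363 there.

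**Figure D5:**
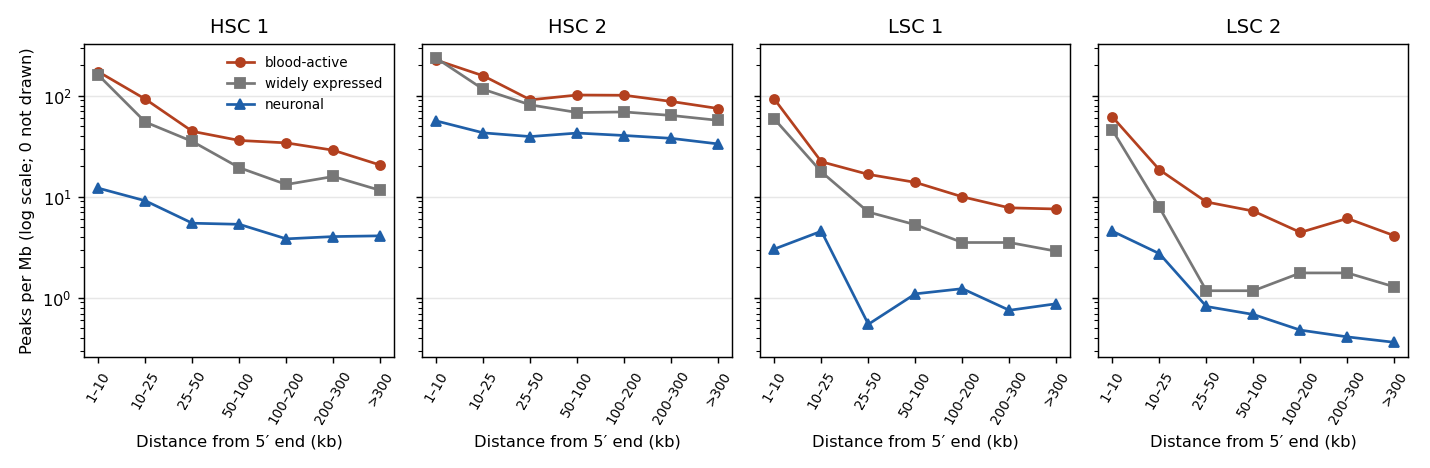
Peaks per Mb (log axis) by distance from the gene's 5′ end in kb, 1 panel per library, for blood-active, widely expressed and neuronal members with known strand (36, 34 and 146 genes). Blood-active bodies fall from 173, 225, 92.6 and 61.7 at 1 to 10 kb to 20.6, 74.7, 7.57 and 4.12 beyond 300 kb and stay above neuronal bodies in each bin of each panel.

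In the deposited lists, members with body peaks in 1 group alone were all found in HSC, the group with the longer lists. A body peak in both HSC lists and neither LSC list was found in 223 of 557 members (40.0%), against 16.4% of all 19304 protein-coding genes with a body and 21.8% of genes of 100 to 300 kb. The reverse was found in 0 members, against 0.212% of all genes and 0 of the genes of 100 to 300 kb. Of the 223, 107 were neuronal, 24 other silent and 5 blood-active. Among those leading by the lower HSC density were Syn3, a synapsin gene (13 and 36 peaks in HSC 1 and HSC 2) and Dennd1a (10 and 36). A peak in all 4 lists was found in 173 members, 31.1% of them, beside 31.1% of all genes and 42.7% of genes of 100 to 300 kb, and 28 of these were blood-active and 34 neuronal.

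With equal-sized lists the same count was 5 for HSC and 28 for LSC, against 2.05% and 2.99% of all genes and 1.5% and 3.04% of genes of 100 to 300 kb. The corresponding counts for mixed pairs of 1 HSC and 1 LSC library were 1, 0, 17 and 2 members. The 28 thus lay above all 4 mixed pairs, the highest of which, at 17, paired HSC 2 with LSC 1. Of these 28, 8 were neuronal, 5 other silent, 2 widely expressed and 13 unlisted, and none was blood-active. Col19a1, a collagen gene, led with 2 peaks in each LSC list, one of which reached to within 1 kb of its 5′ end, followed by Akap6 (3 and 2), Dgki (3 and 2) and Dnm3 (4 and 2). All 4 genes had body peaks in both HSC lists as deposited, at lower rank. The 5 HSC genes were Pde1a, Csgalnact1, Kcnab1, Syn3 and Lpp. A body peak in all 4 equal-sized lists was found in 112 members (20.1%, against 22% of all genes and 32.1% of genes of 100 to 300 kb), 25 of them blood-active and 11 neuronal, and 246 members had none in any.

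One neuronal member had no peak in the lists used here and is not described further.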

How the data were processed

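Sub1 CUT&Tag was measured in 2 HSC and 2 LSC libraries, with 1 deposited peak list each. The submitters' processing notes name FastQC 0.11.5, Bowtie2 2.2.9 with mm10, MACS2 for peaks and ChIPseeker, and the labels' protocols give 17-20 PCR cycles. Duplicate handling is not given in the sources used here, and a control library was not used here. Peak names carry a prefix (H4-Cut) that the labels do not explain. The deposited fold is a ratio of pileup to background, and with it the authors deposited -log10 of p and of q, an integer score made from the latter, and the summit offset. The lowest deposited -log10 q was 5.21, 5.26, 5.36 and 5.41 in HSC 1, HSC 2, LSC 1 and LSC 2. Background was solved from fold and -log10 p, and it and the list lengths limit which peaks can be seen.

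Genes came from RefSeq GRCm38. A peak was counted in a body when its midpoint lay there, and overlapping bodies were merged for totals. Strand and start sites came from the RefSeq promoter table (425 of 557 members matched), and neither exons nor introns were told apart. Libraries were compared by two-sided exact permutation tests, and genes were not treated as replicates. The members, class lists and named genes were chosen with earlier results of these data known. Named members are a fixed set, the 10 with the highest lowest density over libraries, the 5 with the highest-ranking strongest peak, the leading members present in 1 group alone, the longest without LSC peaks, and the 3 highest and lowest of each class. Genes enclosed by or overlapping these and the contrast starts were chosen after their values were seen. Some members that the rule names are not reported here. Alternatives were list size, threshold, assignment, trimming, length, gene ends, chromosomes, covered length, merging, left-out libraries and the replicate block. Counting was checked on simulated peaks. Computing used NumPy 2.4.6 and pandas 2.3.3 on Python 3.11.15, and figures matplotlib 3.10.9.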

Additional observations from a re-analysis of the deposited data

Results flagged for a closer look

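The lists also held peaks outside chromosomes 1 to 19, X and Y, which enter no comparison above: 686 in HSC 1, 1263 in HSC 2, 354 in LSC 1 and 300 in LSC 2. They were counted as a signal in data not otherwise used, no member lies there, and no control library was at hand to set them against.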

How the results depend on the processing

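The log2 density ratios of blood-active to neuronal, of blood-active to other silent and of long bodies to the rest, averaged over libraries, kept their direction under every alternative run, at the smallest p the design allows in each. The difference between HSC and LSC in the blood-active to other silent ratio kept its sign in these alternatives (-1.23 as reported, -0.24 with equal-sized lists, -0.25 with 16942 and -1.86 with 8471 peaks), and the other 3 differences did not. With the strongest 4235 peaks, a size not among these alternatives, the blood-active to other silent ratio was not lower in HSC. In equal-sized lists Cdh23 alone held a large part of the other silent peaks, and the sign without it was not computed. With equal-sized lists the body density differed by -0.19, the blood-active to neuronal ratio by 0.47 and the ratio of bodies to rest by -0.20 on the log2 scale, 5 and 28 members were found in HSC alone and LSC alone, and 32.0% of blood-active body peaks lay in the first 50 kb. With the strongest 16942 peaks the values were -0.47, 0.39, -0.48, 4, 29 and 33.7%. With the strongest 8471 (a size chosen after seeing the data) the blood-active to neuronal ratio differed by 0.14, the body density by 0.17 and the ratio of bodies to rest by 0.17, the counts were 8 and 4, and the shares were 46.5% in the first 50 kb and 64.1% of LSC body peaks shared with both HSC lists. A -log10 q of at least 10 left 119 HSC members, a length over 500 kb, which tests fewer genes, 108, and a trim of 10 kb, which removes the densest bin, 14.8% in the first 50 kb. Leaving out 1 library gave from 27.7% (without LSC 2) to 57.9% (without HSC 1) of LSC body peaks shared with the HSC lists, beside 36.7%. It gave from 0 to 4 members in LSC alone, the 4 without HSC 2. By construction, leaving out an HSC library asks for a peak, or its absence, in the remaining HSC list in place of both. Without LSC 2 the share is that of LSC 1 alone. Except where the construction is named, the cause was not tested.

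Of single members named, 90 of 91 had a higher mean density in HSC as deposited and 24 in equal-sized lists, where 34 were higher in LSC. The replicate block, which compares same-numbered libraries within 2 pairs, gave the same differences (3.38 for body density, -1.41 for the blood-active to neuronal ratio, exact sign-flip permutation p = 0.5, the smallest it allows). The labels give only a number, and same-numbered libraries' deviations correlated at 0.08 over members. The depth of each library is known only through its background, so a body without a peak may hold signal under the threshold.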
